A study of Mus musculus with 10 samples.

Results

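The genes that build the tight junction, 31 in number, were followed in RNA-seq data of mouse intestinal organoids. They were taken by symbol from the 47069 genes with counts in the table of the series: 22 claudins, *Ocln*, *Marveld2*, *Marveld3*, the scaffold genes *Tjp1*, *Tjp3* and *Cgn*, and the junctional adhesion molecules *F11r*, *Jam2* and *Jam3*. The claudins were sorted by the role usually given to them into 5 pore-forming, 11 sealing, 1 endothelial and 5 of unsettled role. Of the 31 genes, 29 had a count in at least 1 library and 21 passed the filter on low counts and were tested. The organoids came from C57BL/6 mice with floxed *Ppp2r1a*, the scaffold subunit of the phosphatase PP2A, and a CreERT2 expressed from the stem cell gene *Lgr5*, so that tamoxifen deletes *Ppp2r1a* only in *Lgr5*+ cells and their progeny. All were kept for 50 days in Matrigel with Noggin, EGF and R-spondin-1, and all 5 groups had 2 libraries: control (saline), DMBA (7,12-dimethylbenz[a]anthracene, a carcinogen, with the word Long in its label), TAM short and TAM long (tamoxifen, labelled as dosage-sensitive), and DMBA+TAM. What short and long stand for is not given in the sources used here, and neither is whether the libraries of a group came from separate cultures or mice, so the p-values measure only the spread between these libraries.

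Tight junctions close the gap between neighbouring epithelial cells near their apical side. Claudins are their strands: each spans the membrane, and the set a cell makes decides how easily ions and water pass between cells. Pore-forming claudins such as *Cldn2* and *Cldn15* let sodium through, sealing claudins such as *Cldn1*, *Cldn3*, *Cldn4*, *Cldn7* and *Cldn8* narrow the path, and *Cldn5* is the main claudin of blood vessel endothelium. Occludin (*Ocln*), tricellulin (*Marveld2*) and *Marveld3* are the MARVEL proteins of the strands, ZO-1 (*Tjp1*), ZO-3 (*Tjp3*) and cingulin (*Cgn*) tie them to actin from inside the cell, and the junctional adhesion molecules JAM-A (*F11r*), JAM-B (*Jam2*) and JAM-C (*Jam3*) are immunoglobulin-type receptors, of which JAM-A is typical of epithelium and the other two of endothelium and other cells. In the gut, *Cldn2* and *Cldn15* are known from the small intestine and crypts, and *Cldn8* from the large intestine.

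The libraries held 8828247 to 10923673 counts, except for DMBA+TAM with 1592366 and 1915270, where 3 counts stand for 1.58 and 1.32 normalised CPM (counts scaled to a common TMM-adjusted library total) against 0.258 to 0.378 elsewhere. *Ppp2r1a* was not lower in the groups labelled TAM, with means of 126 ± 4.55 normalised CPM (SD, n = 2) for control, 139 ± 11.8 in TAM short, 163 ± 8.07 in TAM long and 131 ± 2.63 in DMBA+TAM, and counts summed over the whole gene cannot show the loss of single exons. Markers of tissue separated DMBA+TAM from the rest: 13 epithelial markers, led by *Krt8*, *Lgals4*, *Krt19* and *Krt20*, summed to 28.1 to 47.9 normalised CPM there and to 16130 to 24900 in the other libraries, with *Grhl2* at 0 counts, 10 fibroblast markers (*Col3a1*, *Col1a2*, *Col1a1* and *Dcn* the most abundant) to 33460 to 34410 against 688 to 2240, and 12 endothelial markers (*Pecam1*, *Eng*, *Kdr*, *Vwf*) to 931 to 946 against 98.2 to 187. Also higher there in sum were 5 fat cell markers (*Fabp4*, *Cidec*, *Adipoq*, *Plin1*), at 1319 to 3047 against 44.0 to 194.9, and 6 immune markers (*Csf1r*, *Ptprc*, *Cd68*, *Itgam*), at 798.9 to 876 against 51.1 to 154.1, although of the last list the T cell marker *Cd3e* was at 0 counts in both DMBA+TAM libraries and lower than in control, and the B cell marker *Cd79a* (log2 fold change -3.1) did not pass the test. The label of DMBA+TAM as intestinal organoid thus has little epithelial RNA behind it. In sum, markers of gut segment separated the other groups: 11 small intestine genes (*Apoa1*, *Fabp6*, *Sis*, *Mttp*) summed to 18180 to 25590 in control and TAM short and to 20.0 to 293.4 in DMBA and TAM long, and 10 colon genes (*Car1*, *Slc26a3*, *Car4*, *Aqp8*) to 519.5 to 952 and to 3632 to 12730. Not every gene followed its sum. *Fabp6* had 1.53 ± 1.82 normalised CPM in control and 1.08 ± 0.106 in DMBA. The colon gene *B3gnt7* was higher in DMBA than in control (log2 fold change 3.11) but lower in TAM long than in TAM short (-3.32). The libraries are titled NS (control), NL (DMBA), DSS_S (TAM short), DSS_L (TAM long) and Lgr5 (DMBA+TAM), and groups were taken from the treatment labels. The titles do not name tamoxifen or DMBA, and S and L could mean the small and large intestine and DSS either dosage-sensitive, a word of the TAM labels, or dextran sulfate sodium, which the sources used here do not settle. Hence in DMBA against control the carcinogen and whatever S and L stand for cannot be told apart. In such bulk samples, fewer cells of a type and less RNA per cell cannot be told apart either.

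In control organoids, *Cldn7* (ENSMUSG00000018569, plus strand of chromosome 11 of GRCm38, 69964779 to 69967885) stood far above the other claudins. Its level per length was 1106 ± 82.4 FPKM (fragments per kilobase of gene length, scaled to library size; SD, n = 2), followed by *Cldn15* (ENSMUSG00000001739, chromosome 5, 136966616 to 136975858) with 388.5 ± 51.8, *Cldn3* with 167.6 ± 21.6, *Cldn4* with 89.9 ± 20.4 and *Cldn2* with 72.0 ± 5.98. The levels of *Cldn4* and *Cldn2* were closer than 1 SD of *Cldn4*, while the 3 above them were apart by more than both SDs. *Cldn12* had 20.2 ± 0.687 FPKM, *Cldn23* 10.2 ± 2.13 and *Cldn5* 2.47 ± 0.59. Among the other strand and scaffold genes, *F11r* was highest with 194.8 ± 11.6 FPKM, ahead of *Ocln* (62.8 ± 0.284), *Cgn* (47.4 ± 0.36), *Marveld3* (44.1 ± 3.62), *Tjp3* (39.2 ± 3.48), *Tjp1* (32.5 ± 0.396) and *Marveld2* (16.1 ± 0.0461). *Cldn8*, *Cldn1*, *Cldn10* and *Cldn11* were below 1 FPKM in control, and *Cldn8* was abundant in other groups. The remaining claudins had at most 13 counts in any library. *Cldn16* and *Cldn18* had 0 counts in all 10 libraries, *Cldn6* and *Cldn17* had 1 count in 1 library each, and *Cldn9*, *Cldn13*, *Cldn14*, *Cldn19*, *Cldn20* and *Cldn22* had at most 13 counts in a library. These 10 claudins were not tested.

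**Figure D1:**
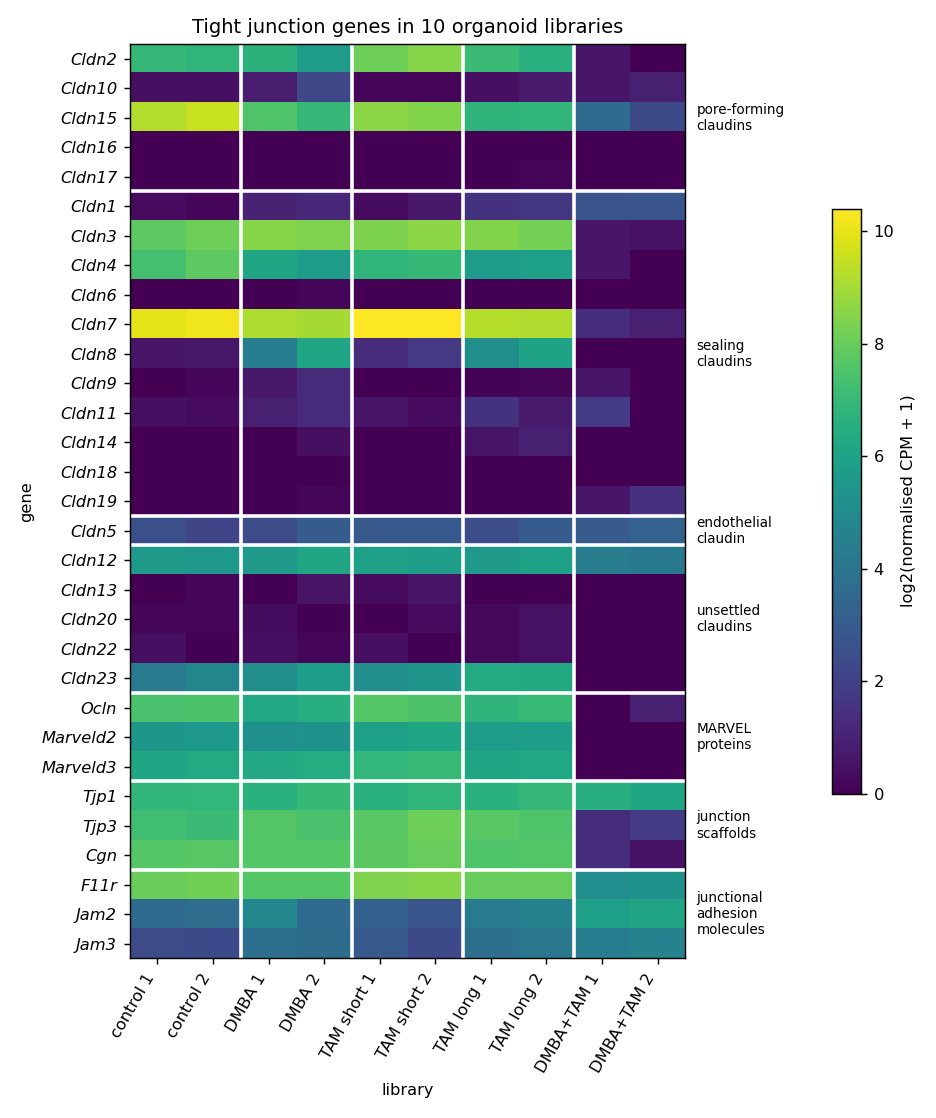
Each row is a tight junction gene, grouped by role, each column a library, and the color is log2(normalised CPM + 1). *Cldn3*, *Cldn4*, *Cldn7*, the MARVEL proteins and *F11r* are bright in the first 8 columns and darker in the 2 DMBA+TAM columns, while *Tjp1*, *Cldn12* and *Cldn5* keep part or all of their color there and *Jam2* and *Jam3* are brighter.

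DMBA+TAM organoids held almost no transcripts of most epithelial junction genes. Against control, 14 of the 21 tested genes were lower and 3 higher by the quasi-likelihood test of edgeR (p-values adjusted after Benjamini and Hochberg over all 16179 tested genes), where 35.3% of genes were lower and 29% higher. The median log2 fold change of the 21 was -6.01, and that of all tested genes was -0.17. DMBA+TAM had 13 of the 21 below every one of the 4 other groups (19.5% of all tested genes) and 2, *Cldn1* and *Jam2*, above every one (18.4%). Scaling by library size only moved all genes of DMBA+TAM against control up by 0.49 (log2, median). Under it *Tjp1* lost its call and *Cldn5* gained one.

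Among the sealing claudins, *Cldn7* had 1003 and 1153 normalised CPM in control, 550.3 and 507.3 in DMBA, 1349 and 1355 in TAM short, 602.4 and 579.3 in TAM long, and 1.58 and 0.879 in DMBA+TAM. The last 2 libraries held 5 *Cldn7* counts between them, which puts the level 897-fold lower than in control (95% exact counting interval 384 to 2764; these intervals cover counting error only). *Cldn3* had 222.6 and 276.6 normalised CPM in control and 0.527 and 0.44 in DMBA+TAM, where each library had 1 count, a level 519-fold lower (143.6 to 4287). *Cldn4*, a claudin that tightens many absorptive epithelia, had 159.1 and 227.4 in control and 0.527 and 0 in DMBA+TAM, a level 802-fold lower (143.8 to 31680) that rests on 1 count. The adjusted p was 1.69e-08 for *Cldn3*, 1.25e-07 for *Cldn4* and 6.13e-09 for *Cldn7*, and in none of the 3 did a library of DMBA+TAM reach any other library. *Cldn8* had no count in either DMBA+TAM library, and against its 10 counts in control no fall was detectable at this depth, but it was at least 60.1-fold lower than in DMBA and 66.8-fold lower than in TAM long. Without DMBA replicate 2 the first bound was 29.4-fold, and without DMBA+TAM replicate 1 or 2 the bounds were 32.8- or 27.3-fold and 36.4- or 30.4-fold. *Cldn1*, a claudin best known from skin and also made by other cell types, went the other way. Its counts were 2 and 1 for control, 11 and 11 for DMBA, 2 and 5 in TAM short and 22 and 22 in TAM long, and 10 and 13 in the far smaller DMBA+TAM libraries, 5.27 and 5.72 normalised CPM, 31.6-fold higher than in control (9.54 to 164.2; fitted log2 fold change 4.86 with a standard error, SE, of 0.63, adjusted p = 8.38e-05). *Cldn1* was 2.73-fold higher than in TAM long (1.58 to 4.62, adjusted p = 0.0234), a call that was lost when any 1 of these 4 libraries was left out. *Cldn11*, the claudin of myelin and Sertoli cells, had 5 and 0 counts in DMBA+TAM (adjusted p = 0.192 against control).

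Of the pore-forming claudins, 2 of the 3 tested, *Cldn2* and *Cldn15*, were lower than in control. *Cldn2* had 120.6 and 110.9 normalised CPM in control, 101.3 and 50.8 in DMBA, 272.1 and 363.2 in TAM short and 135.7 and 96.6 in TAM long, and a single count in both DMBA+TAM libraries together, 484-fold lower than in control (86.7 to 19120, adjusted p = 3.04e-06). *Cldn15* had 595.7 and 744.5 in control and kept 22 and 9 counts in DMBA+TAM, 11.6 and 3.96 normalised CPM, 89.9-fold lower (63.3 to 132.3, adjusted p = 3.14e-07). The 2 DMBA+TAM libraries differed in *Cldn15* more than in any other member with over 30 counts there. From replicate 1 alone the fold would lie below this interval, and from replicate 2 alone above it. Relative to the epithelial keratin *Krt8*, the log2 ratio of FPKM (with 0.1 added) was 0.3 and -0.59 for *Cldn15* in DMBA+TAM and between -5.41 and -2.58 in the other 8 libraries, whereas for *Cldn7* it was -1.7 and -1.88 in DMBA+TAM and between -2.23 and -1.13 elsewhere. *Krt8* itself went from 5487 ± 62.2 normalised CPM in control to 9.53 ± 2.91 in DMBA+TAM. *Cldn7*, which rests on 5 counts there, thus went down with *Krt8*, and *Cldn15* less than *Krt8*, as a description without a test. *Cldn15* was not alone in this. The same ratio for *F11r* was 2.11 and 2.94 in DMBA+TAM and between -4.23 and -3.65 elsewhere. *Cldn10*, a pore-forming claudin of the kidney, had 1 and 2 counts in DMBA+TAM (adjusted p = 0.524 against control).

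*Cldn12* was lower in DMBA+TAM but still at 38 and 40 counts there, and *Cldn5* did not pass the test. *Cldn12* (ENSMUSG00000046798, chromosome 5, 5489537 to 5514958), which lacks the tail motif by which most claudins bind ZO proteins, had 46.9 and 46.3 normalised CPM in control, 48.9 and 68.7 in DMBA, 59.6 and 56.0 in TAM short, 47.9 and 60.4 in TAM long and 20.0 and 17.6 in DMBA+TAM. Both DMBA+TAM libraries were below all others, with a log2 fold change of -1.31 ± 0.21 against control (± SE, adjusted p = 0.000338). *Cldn5* had 4.74 and 3.49 in control, 4.37 and 7.17 in DMBA, 6.43 and 6.55 in TAM short, 4.48 and 7.26 in TAM long and 6.85 and 8.79 in DMBA+TAM. Relative to control it differed by 0.93 on the log2 scale (SE 0.40, adjusted p = 0.0634), and it passed the test with library size only, with limma and with only the 2 groups in the fit. In the same libraries all 12 endothelial markers were higher than in control. *Cdh5*, the cadherin of endothelial junctions, went from 10.5 ± 0.388 to 142.5 ± 1.15 normalised CPM and *Pecam1* from 22.8 ± 3.65 to 219 ± 1.24. The log2 ratio of *Cldn5* to *Cdh5* FPKM was -2.85 and -2.52 in DMBA+TAM and between -0.25 and 1.04 in the other 8 libraries, so the endothelial claudin was low for the amount of *Cdh5* in DMBA+TAM. *Cldn23* had 18.7 and 26.1 in control and 0 counts in both DMBA+TAM libraries, at least 31-fold lower, or 16.9- and 14.1-fold without DMBA+TAM replicate 1 or 2.

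The MARVEL proteins were lost together. *Ocln* (ENSMUSG00000021638, chromosome 13, 100496507 to 100552718) had 169.7 and 176.7 normalised CPM in control and 0 and 0.879 in DMBA+TAM, where 2 counts put it 361-fold lower (99.9 to 2983, adjusted p = 5.77e-08). *Marveld2* (44.8 and 46.1 in control) and *Marveld3* (69.6 and 80.9 in control) had 0 counts in DMBA+TAM, with *Marveld2* at 36.4 and 39.5 in DMBA and 51.6 and 56.3 in TAM long. They were at least 63.2-fold and at least 104.4-fold lower than in control, or 28.8-fold and 47.5-fold without DMBA+TAM replicate 2 and 34.5-fold and 56.9-fold without replicate 1. The scaffolds were split. *Cgn* had 201.4 and 206.1 normalised CPM in control, 204.2 and 199.5 in DMBA, 218.2 and 249.6 in TAM short, 185.7 and 196.6 in TAM long and 1.58 and 0.44 in DMBA+TAM, 212.5-fold lower than in control (82.9 to 780.3). *Tjp3* had 146.5 and 133.7 in control, 193.9 and 171.9 in DMBA, 212.7 and 186.2 in TAM long and 1.58 and 2.64 in DMBA+TAM, 65.0-fold lower than in control (34.2 to 142.4). *Tjp1*, the ZO-1 gene, which fibroblasts and endothelium also express, stayed at 90.1 and 69.9 in DMBA+TAM against 113.3 and 119.2 in control, 98.6 and 126.1 in DMBA, 97.9 and 110.4 in TAM short and 100.4 and 121.0 in TAM long. Both DMBA+TAM libraries were the lowest, but the log2 fold change of -0.54 ± 0.17 against control (± SE, adjusted p = 0.0191) did not hold with library size only, with thinned counts, with limma or without control replicate 2 or DMBA+TAM replicate 2.

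Of the junctional adhesion molecules, *F11r* was lower and *Jam2* and *Jam3* were higher in DMBA+TAM. *F11r* had 261.5 and 294.3 normalised CPM in control, 201.1 and 201.9 in DMBA, 335.0 and 362.5 in TAM short, 251.1 and 256.0 in TAM long and 33.7 and 39.1 in DMBA+TAM, a log2 fold change of -2.93 ± 0.13 against control (± SE, adjusted p = 6.93e-08). *Jam2* (ENSMUSG00000053062, chromosome 16, 84774123 to 84825928) rose from 11.4 and 12.02 in control to 56.9 and 66.4 (log2 fold change 2.40, SE 0.35, adjusted p = 0.000206), above DMBA (26.7 and 11.5), TAM short (8.34 and 5.54) and TAM long (18.8 and 22.9). *Jam3*, at 12.8 and 11.7 in DMBA and 6.77 and 3.9 in TAM short, rose from 4.29 and 4.09 in control to 20.5 and 23.7 (log2 fold change 2.40, SE 0.28, adjusted p = 4.07e-05), but was not past the test against TAM long with 13.5 and 16.8 (log2 fold change 0.55, adjusted p = 0.0904). The log2 ratio of *Jam3* to *F11r* FPKM was -6.88 to -4.33 in the other 8 libraries and -1.12 in both DMBA+TAM libraries. The endothelial and fibroblast markers given above moved with *Jam2* and *Jam3*, and their part in these changes was not tested.

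**Figure D2:**
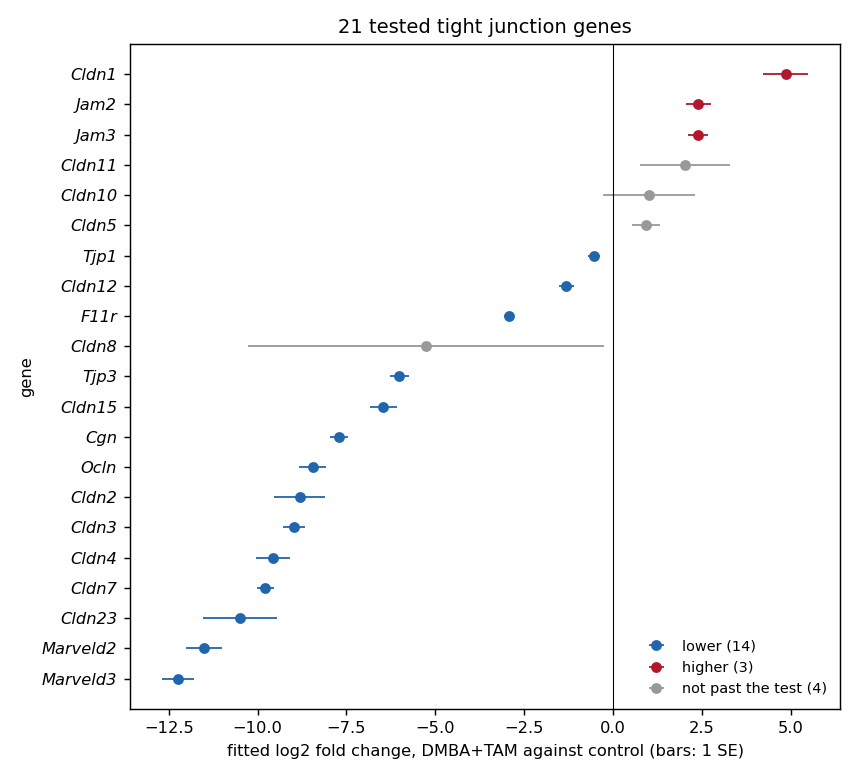
Points are the fitted log2 fold changes of the 21 tested genes in DMBA+TAM against control, with bars of 1 standard error. There are 14 genes lower, from *Tjp1* at -0.54 to *Marveld3* at -12.24, and 3 higher, *Jam2*, *Jam3* and *Cldn1*. Fitted values of genes at or near 0 counts depend on the prior count and are not measured folds.

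The windows around the starts of the members were searched for short motifs, first the E-box CAGGTG, to which Snail and Zeb repressors bind. On the opposite strand it reads CACCTG. It was looked for because DMBA+TAM had 5 of 5 transcription factors known from the epithelial-mesenchymal transition (*Snai1*, *Snai2*, *Zeb1*, *Zeb2* and *Twist1*, the last of another family) above control, among them *Snai1* with 31.9 ± 6.43 against 0.406 ± 0.0642 normalised CPM and *Zeb1* with 75.7 ± 3.89 against 11.9 ± 0.86, after these values had been seen. Over all tested genes 29% were higher in that comparison, and 10 of 10 fibroblast markers were higher with them (median log2 fold change 4.45), whose part in the levels of these factors was not tested. In windows of 250 bases before to 50 bases after annotated starts (RefSeq on GRCm38.p6), it was in 12 of 35 windows, or 9 of the 24 members with a window, and in 20.2% of all 32851 windows. Windows of a gene can overlap, so they are not independent, and *Cldn8*, *Cldn9*, *Cldn13*, *Cldn23*, *Marveld3*, *Jam2* and *Jam3* had no entry in the table used. The sites of the members that DMBA+TAM had below control are shown with 30 bases each, read 5′ to 3′ on the strand of the gene, with the E-box in capitals.
Cldn3, chr5:134986233-134986262, plus strand, E-box from base 32 after the start: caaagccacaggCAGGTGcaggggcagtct
Cldn4, chr5:134946931-134946960, minus strand, from 14 bases before the start: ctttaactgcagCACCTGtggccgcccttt
Cldn4, chr5:134946906-134946935, minus strand, from base 12 after the start: cctttcttgttgCAGGTGcaggcaggaaag
Cldn7, chr11:69965312-69965341, plus strand, from 97 bases before the second of its starts: tttcttcctcttCACCTGgacgaggagggg
Cldn7, chr11:69965352-69965381, plus strand, from 57 bases before the same start: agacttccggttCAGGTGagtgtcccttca
Ocln, chr13:100552694-100552723, minus strand, from base 8 after the start: ccatcggagtttCAGGTGaatgggtcaccg
Ocln, chr13:100552549-100552578, minus strand, from 68 bases before another start: ctaggggctcggCAGGTGggtcccagcgca
Marveld2, chr13:100616922-100616951, minus strand, from base 44 after the start: agcgtgctgttccggcggccgcgCAGGTGa
Tjp3, chr10:81291267-81291296, minus strand, from 17 bases before the start: cacaaaccctccCACCTGcaggccggcctc
Tjp3, chr10:81291672-81291701, minus strand, from 108 bases before another start: gtcacaaggggtCAGGTGtacagacaggga
F11r, chr1:171437427-171437456, plus strand, from 122 bases before the start: agttcggggttgCACCTGcgtacggtgagt

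The other 2 members with the motif, *Cldn6* and *Cldn14*, had at most 9 counts in a library. Of the 14 members lower than in control 12 had a window, 7 of them with these letters and 5 without (*Cgn*, *Cldn2*, *Cldn12*, *Cldn15* and *Tjp1*). The share over all windows is no background for counts of members, since a member can have several windows. A share over all genes is not given here. As a share of windows the E-box was in 34.3% of those of members. Of the other motifs looked for, on either strand, AACCNGTT of Grhl factors was in 2 of 35 (5.71%, against 2.09% of all windows), TTTATG of Cdx factors in 2 (5.71%, against 11.9%) and GTTAAT of HNF1 in 4 (11.4%, against 7.1%). A match is only a description of the sequence, and no binding was measured.

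The next comparisons were DMBA against control and TAM long against TAM short, which share no library. In DMBA against control, 6 of 21 genes were higher (*Cldn1*, *Cldn3*, *Cldn8*, *Cldn10*, *Cldn23*, *Jam3*; 24.5% of all tested genes were higher) and 5 lower (*Cldn4*, *Cldn7*, *Cldn15*, *F11r*, *Ocln*; 23.3%), or 10 and 4 with scaling by library size only, which moved all genes up by 0.30. In TAM long against TAM short, 5 were higher (*Cldn1*, *Cldn8*, *Cldn23*, *Jam2*, *Jam3*; 22% of all tested genes) and 7 lower (*Cldn2*, *Cldn4*, *Cldn7*, *Cldn15*, *F11r*, *Marveld3*, *Ocln*; 20.3%). Called the same way in both were 9 of 21, 42.9% against 30.3% of all tested genes, and 15 of 21 had the same sign (71.4%, against 78.1% of all tested genes). The share with the same sign was thus no higher than among all tested genes.

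*Cldn8* (ENSMUSG00000050520, chromosome 16, 88560828 to 88563183) made the largest change of the 21 in both comparisons. It had 5 counts in each control library, 0.564 and 0.601 normalised CPM, and 21.1 and 70.9 in DMBA, a log2 fold change of 6.26 ± 0.77 (± SE, adjusted p = 0.000238). It had 1.47 and 2.39 in TAM short and 34.9 and 62.9 in TAM long, a log2 fold change of 4.66 ± 0.65 (± SE, adjusted p = 0.000635). The groups did not overlap, although replicates within DMBA differed by more than any other pair for this gene. *Cldn23* rose from 18.7 and 26.1 to 34.6 and 54.0 in DMBA (log2 fold change 0.98, adjusted p = 0.00921) and from 33.9 and 42.6 in TAM short to 81.3 and 79.9 in TAM long (1.08, adjusted p = 0.00596). *Jam3* rose by 1.55 and 1.49 on the log2 scale (adjusted p = 0.00104 and 0.00133) and *Cldn1*, with at most 22 counts in any of these libraries, by 2.55 and 2.23 (adjusted p = 0.0105 and 0.00826). *Jam3* moved together with 8 of 8 smooth muscle markers (*Myh11*, *Tagln*, *Des*, *Acta2*), higher in both comparisons and summing to 1296 to 2439 normalised CPM in control and TAM short and to 7580 to 13630 in DMBA and TAM long, and with 9 and 10 of 10 fibroblast markers. Their part in the change of *Jam3* was not tested.

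Lower in both were *Cldn15*, which in control had a higher FPKM than *Cldn2*, and the sealing claudins *Cldn4* and *Cldn7*, with *Ocln* and *F11r*. *Cldn15* went from 595.7 and 744.5 normalised CPM in control to 185.5 and 121.9 in DMBA (log2 fold change -2.12, SE 0.28, adjusted p = 0.000212) and from 390.8 and 348.1 in TAM short to 108.0 and 113.5 in TAM long (-1.74, SE 0.27, adjusted p = 0.000871). *Cldn4* went from 159.1 and 227.4 to 70.5 and 51.9 (-1.66, adjusted p = 0.000184) and from 111.2 and 124.5 to 52.5 and 57.9 (-1.09, adjusted p = 0.00253). *Cldn7*, given above for all libraries, fell by 1.03 and 1.19 on the log2 scale (adjusted p = 0.000223 and 0.000131). *Ocln* went from 169.7 and 176.7 to 73.5 and 92.9 in DMBA and from 199.1 and 181.6 in TAM short to 107.9 and 127.1 in TAM long (-1.06 and -0.7, adjusted p = 0.000969 and 0.0105), and *F11r* fell by 0.46 in each (adjusted p = 0.00907 and 0.0108), a call lost with library size only in both. For these genes no library of DMBA reached control and none of TAM long reached TAM short. This adds no support, since the genes were chosen by tests on these same libraries. *Krt8* was 5487 ± 62.2 in control, 5417 ± 321.3 in DMBA, 7045 ± 269.5 in TAM short and 5662 ± 423.8 in TAM long. The log2 ratio of *Cldn7* to *Krt8* FPKM was -1.31 and -1.13 in control and -1.21 and -1.29 in TAM short, and -2.23 and -2.22 in DMBA and -2.02 and -2.23 in TAM long. Other epithelial markers differed more than this keratin: of the 13, 6 were higher and 4 lower in DMBA against control and 3 higher and 4 lower in TAM long against TAM short. *Krt20* (-1.42 and -1.26) and *Vil1* (-2.36 and -1.98) had larger falls than *Cldn7* (-1.03 and -1.19) and *Epcam* smaller ones (-0.74 and -0.85), so the ratio to *Krt8* does not stand for epithelial genes at large. Some of these calls rested on single libraries. In DMBA against control, *Cldn23* lost its call without control replicate 1, and *Cldn1* and *F11r* without control replicate 2. In TAM long against TAM short, *Cldn1*, *Cldn23* and *Ocln* lost theirs without TAM short replicate 1, *F11r* and *Jam2* without TAM short replicate 2, and *Ocln* and *F11r* without TAM long replicate 1. *Cldn4*, *Cldn7*, *Cldn8*, *Cldn15* and *Jam3* kept both calls whichever of these 8 libraries was left out. With limma on log2(FPKM + 0.1), however, *Cldn4*, *Ocln* and *F11r* lost both calls. *Ocln* and *F11r* also lost theirs in TAM long against TAM short with limma on log2(FPKM + 1) and with thinned counts.

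**Figure D3:**
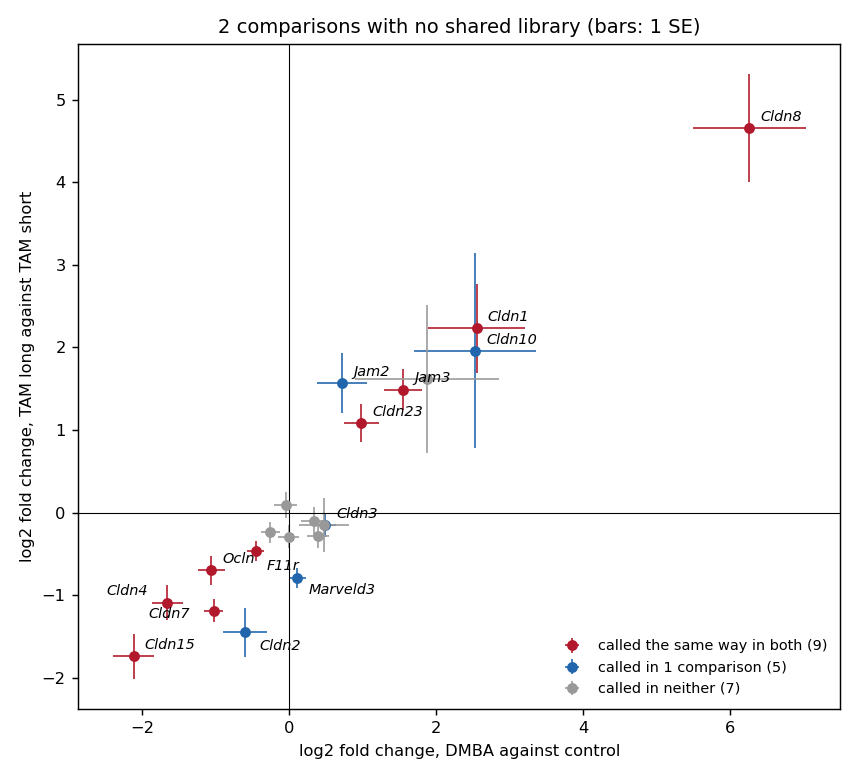
Each point is a tested gene, with its log2 fold change in DMBA against control on the horizontal axis, that in TAM long against TAM short on the vertical axis, and bars of 1 standard error. The 9 genes called the same way in both (red) lie along a line from *Cldn15* at the lower left to *Cldn8* at the upper right.

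*Cldn3*, *Cldn2* and *Marveld3* passed the test in 1 of the 2 comparisons, and of these the difference between the comparisons passed for *Marveld3* but not for *Cldn2* (-0.85, adjusted p = 0.278) or *Cldn3* (-0.65, adjusted p = 0.103). *Cldn3* was higher in DMBA, with 363.9 and 338.8 normalised CPM, than in control with 222.6 and 276.6 (log2 fold change 0.49, adjusted p = 0.02, lost without control replicate 1 or DMBA replicate 1 and with only the 2 groups in the fit), and had 329.2 and 387.5 in TAM short and 348.7 and 296.3 in TAM long (-0.15, adjusted p = 0.433). *Cldn3* and *Cldn4* are neighbours on chromosome 5, 39.3 kb apart with no listed gene between them. This pair of adjacent sealing claudins was thus called in opposite directions in DMBA against control. Neither call held in all settings, as that of *Cldn4* was lost with limma on log2(FPKM + 0.1). *Cldn2* was lower in TAM long than in TAM short (-1.45, SE 0.30, adjusted p = 0.00396), a call lost with limma on log2(FPKM + 0.1). Its change of -0.6 in DMBA against control was not past the test (adjusted p = 0.126). *Marveld3* had 118.9 and 129.3 in TAM short and 69.1 and 74.1 in TAM long (-0.79, adjusted p = 0.00107), and 69.6 and 80.9 in control and 77.6 and 85.0 in DMBA (0.11, adjusted p = 0.485). The difference between these 2 changes, tested as an interaction, was -0.9 (SE 0.17, adjusted p = 0.0211), the only 1 of 21 to pass, where 5.71% of all tested genes did. It was not past the threshold without control or TAM short or TAM long replicates, each left out in turn. *Jam2* differed in TAM long against TAM short (1.57, adjusted p = 0.00612), but DMBA replicate 1 had 26.7 and replicate 2 had 11.5, no higher than control. In TAM long against TAM short, 6 of 12 endothelial, 10 of 10 fibroblast, 8 of 8 smooth muscle and 4 of 6 enteric glia markers were also higher and 0 lower. Of all tested genes 22% were higher, and the part of these cell types in the change of *Jam2* was not tested. *Cldn10*, with 8 and 32 counts in DMBA but only 3 per control library, was called higher there (2.53, adjusted p = 0.0296) and lost the call in DESeq2, with thinned counts and without either control library or DMBA replicate 2.

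**Figure D4:**
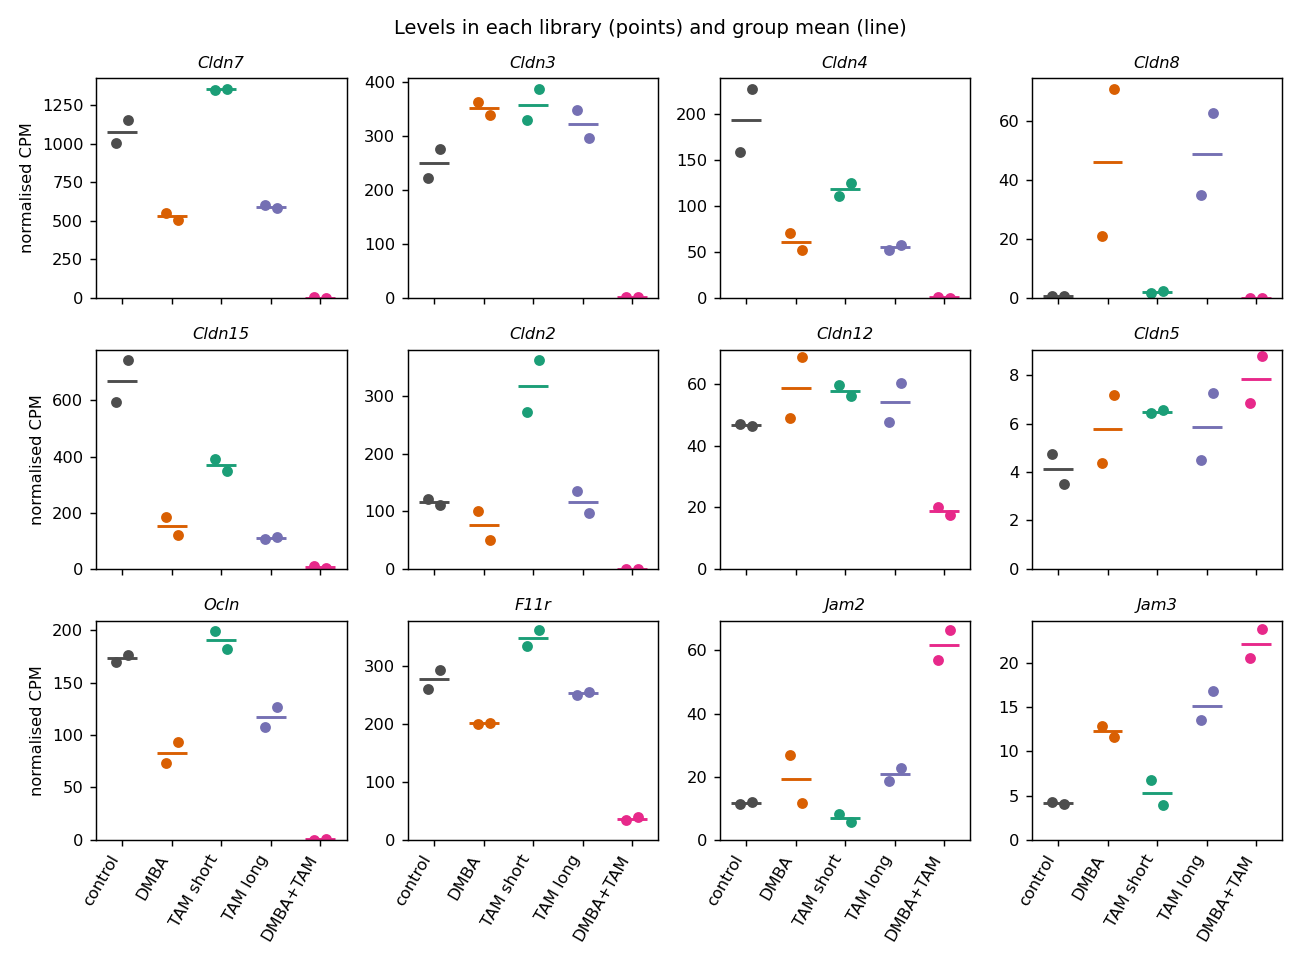
Points are the normalised CPM of single libraries and lines the mean of the 2 libraries of a group, on axes that start at 0. *Cldn7*, *Cldn4*, *Cldn15* and *Ocln* are lower in DMBA and TAM long than in control and TAM short, *Cldn8* is seen almost only in DMBA and TAM long, *Cldn2* is highest in TAM short, and *Jam2* and *Jam3* are highest in DMBA+TAM.

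TAM short was next compared with control, both with an S in their titles. Here 5 of 21 genes were higher (6.52% of all tested genes) and 1 lower (7.8%), or 6 and 0 with library size only. The higher ones were *Cldn2* (log2 fold change 1.46, SE 0.30, adjusted p = 0.0117), *Cldn3* (0.52, adjusted p = 0.0426), *Marveld2* (0.49, adjusted p = 0.0364), *Marveld3* (0.72, adjusted p = 0.00561) and *Tjp3* (0.79, adjusted p = 0.00807), and the lower one was *Cldn4* (-0.71, adjusted p = 0.0464). *Tjp3* had 146.5 and 133.7 normalised CPM in control and 212.4 and 272.1 in TAM short, and *Marveld2* 44.8 and 46.1 and 58.9 and 68.9. For all 6 the groups did not overlap, which adds no support, since the genes were chosen by tests on these same libraries. The calls were not firm, as several of them were lost whichever of these libraries was left out. The call of *Cldn4* was kept only without control replicate 1. *Cldn15* had -0.86 (adjusted p = 0.0604), below all control values in both TAM short libraries, and was called lower with DESeq2, without the filter, with only the groups compared, with the replicate block and with thinned counts. These 2 groups also differed in genes that mark position along the small intestine. *Fabp6*, a bile acid binding protein of the ileum, had 1.53 ± 1.82 normalised CPM in control and 8388 ± 789.1 in TAM short, and 6 of 11 small intestine markers were lower and 2 higher. Of 6 immune markers 2, *Ptprc* and *Itgam*, were higher in TAM short. The part of position, or of immune cells, in the difference of *Cldn2* and *Cldn15* was not tested.

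Between TAM long and DMBA, which both have L in their names, edgeR called 0 of 21 genes in either direction at an adjusted p under 0.05, where 1.24% of all tested genes were higher and 1.46% lower. At an unadjusted p under 0.05 there were 5. The share of all tested genes at that unadjusted threshold is not given here, so the 5 are not read as a result about the members. DESeq2 called 1, *Cldn23*, with 81.3 and 79.9 normalised CPM in TAM long and 34.6 and 54.0 in DMBA (log2 fold change 0.87, SE 0.23, adjusted p = 0.0852 in edgeR).

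Expressed as shares of the summed claudin FPKM, the pool kept its main member and changed the rest. *Cldn7* made up 53.2% to 66.0% of it in the 8 libraries outside DMBA+TAM. *Cldn15* held 20.3% and 21.5% in control, 10.1% and 7.34% in DMBA, 10.8% and 9.24% in TAM short and 5.7% and 6.34% in TAM long. *Cldn3* held 8.77% and 9.24% in control, 23.0% and 23.6% in DMBA, 10.5% and 11.9% in TAM short and 21.3% and 19.2% in TAM long. In DMBA its own level was also higher than in control (log2 fold change 0.49). From TAM short to TAM long its level did not rise (-0.15, not past the test), so there the higher share came with the fall of others. Pore-forming claudins together were 24.7% and 24.9% in control, 16.1% and 10.8% in DMBA, 18.8% and 19.6% in TAM short and 13.4% and 12.2% in TAM long. The balance of the 2 sodium pores differed between groups, as the log2 ratio of *Cldn2* to *Cldn15* FPKM was -2.21 and -2.65 in control, -0.77 and -1.16 in DMBA, -0.43 and 0.16 in TAM short and 0.43 and -0.13 in TAM long, higher in these 6 treated libraries than in both of control. With 2 libraries against 2, an exact permutation test cannot go below p = 0.33, so these shares are given without a test.

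In DMBA+TAM the summed claudin FPKM was 35.8 and 26.6, against 1110 to 2324 in the other libraries, and rested on 97 and 91 counts. *Cldn12* was the largest part of it with 34.1% and 40.1%. *Cldn5* had 16.1% and 27.8% and *Cldn15* 26.5% and 12.1%, so which of them came next differed between the 2 libraries. *Cldn7* was down to 6.39% and 4.76%, and *Cldn1*, which was below 0.1% in every other library, made up 5.41% and 7.86%.

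**Figure D5:**
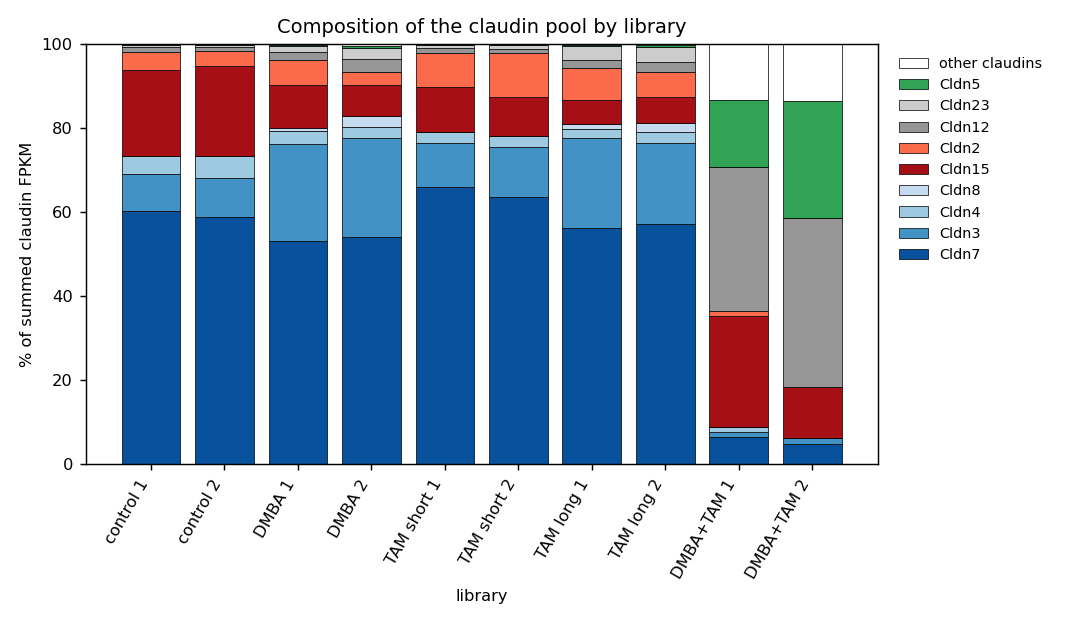
Bars show the percentage of the summed claudin FPKM of each library taken by each claudin. Blue marks the sealing *Cldn3*, *Cldn4*, *Cldn7* and *Cldn8*, and red the pore-forming *Cldn2* and *Cldn15*. Grey marks the unsettled *Cldn12* and *Cldn23*, and green the endothelial *Cldn5*. White holds all other claudins of any role, among them the sealing *Cldn1*. The first 8 bars are led by *Cldn7* (53.2% to 66.0%), with a smaller red part in DMBA and TAM long than in control. The 2 DMBA+TAM bars, which rest on 97 and 91 counts, are led by *Cldn12*, *Cldn5* and *Cldn15*.

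Other genes of the tight junction, 24 in number and all tested, moved in both directions. Against control, DMBA+TAM had 6 higher (29% of all tested genes) and 17 lower (35.3%), with a median log2 fold change of -1.89. At 0 counts in both DMBA+TAM libraries were *Ildr1* (angulin-2, a receptor that brings tricellulin to corners where cells meet), *Pard6b* and *Crb3* of the polarity complexes, and *Igsf5*. *Mylk*, the myosin kinase that loosens the junction, was lower (-3.89, adjusted p = 4.53e-06). *Mylk* is also abundant in smooth muscle, of whose 8 markers 4 were lower and 2 higher here, with *Myh11* at 960 ± 151 normalised CPM in control and 45.9 ± 1.6 in DMBA+TAM, and their part in the change of *Mylk* was not tested. Also lower was the adhesion receptor *Cxadr* (-5.65, adjusted p = 9.32e-08), while *Ybx3*, the ZO-1 partner ZONAB, had 0.17 (adjusted p = 0.482). All 11 genes of adherens junctions and desmosomes (*Ctnna1*, *Dsp* and *Dsg2* among them) were lower too. *Cdh1*, E-cadherin, had 781.1 ± 9.77 normalised CPM in control and 3.29 ± 0.936 in DMBA+TAM. In DMBA against control 9 of the 24 were higher (24.5% of all tested genes) and 8 lower (23.3%). In TAM long against TAM short 9 were higher (22%) and 9 lower (20.3%), and 15 were called the same way in both (30.3%). *Ildr1* changed most, with 13 and 25 counts for control, 2768 and 1614 for DMBA, 133 and 178 for TAM short and 3255 and 2167 for TAM long, and log2 fold changes of 6.58 (adjusted p = 2.64e-06) and 3.72 (adjusted p = 2.87e-05). This order of the groups is that of *Cldn8*. In TAM short against control 3 of the 24 were higher (6.52% of all tested genes), among them *Ildr1* (3.06, adjusted p = 0.000895) and *Cxadr* (0.66, adjusted p = 0.0368).

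The counts were summed over genes without a stated strand setting, so genes that overlap on the other strand could share reads. *Tjp3* overlaps *Apba3*, which had 2358 counts over all libraries, and *Cldn20* overlaps *Tfb1m*. For the other members, overlapping genes had at most 26 counts in all libraries together. *Ocln* and *Marveld2* lie 43.2 kb apart on chromosome 13 with no listed gene between them, and both were lost in DMBA+TAM.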

How the data were processed

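RNA-seq was made from poly(A) RNA of 10 organoid libraries, by a sequencing company per the study's methods. TopHat was used by the authors for mapping and HTSeq for the deposited counts per gene, from which the authors made the deposited FPKM with gene length. The build in the submitters' processing notes is GRCm38.p6. The deposited FPKM of 15 of the 31 members used another gene length than the one listed. The table also holds results of comparisons by the authors, which were not used. The main test was edgeR 4.0.16 under R 4.3.3 (filterByExpr, TMM, quasi-likelihood fit with 1 mean for each of 5 groups, Benjamini-Hochberg adjustment over 16179 genes, threshold 0.05). Folds against DMBA+TAM groups at 0 counts were set to 3 counts over both libraries and are lower bounds; other low folds have 95% exact intervals. Alternatives were DESeq2 1.42.0, limma 3.58.1 on log2(FPKM + 1) and log2(FPKM + 0.1), library size only, no filter, only the groups compared, a replicate block, thinning to 1592366 counts, a least absolute log2 change of 1, and leaving out each library. All 31 members were accounted for: those with a mean of at least 5 FPKM in a group (18) have every library's value. Of the other lists used here up to 4 genes of highest mean count over all libraries are named. Some others (*Ildr1*, *Pard6b*, *Crb3*, *Igsf5*, *Snai1*, *Zeb1*, *Cdh5*, *Grhl2*, *Vil1*, *Epcam*, *Cd3e*, *Cd79a*, *B3gnt7*) were chosen after their values were seen. Members and lists were chosen with earlier results of these data known. The edgeR, DESeq2 and limma fits were run on simulated counts. There, far fewer genes changed than were called here in DMBA+TAM against control, so scaling under so many changes was not tested. The counting intervals, the shares and the motif search were not simulated.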

Additional observations from a re-analysis of the deposited data

Results flagged for a closer look

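For *Marveld3*, 1 of the 21 tested members, the change differed between the 2 settings compared here, a share no higher than the 5.71% of all tested genes. On the log2 scale it changed by -0.79 from TAM short to TAM long and by 0.11 from control to DMBA, and the difference of -0.9 passed edgeR's interaction test (adjusted p = 0.0211). The 2 TAM short libraries, at 118.9 and 129.3 normalised CPM, were above all others. Of the 24 other tight junction genes, *Ildr1* differed likewise, rising by 3.72 from TAM short to TAM long and by 6.58 from control to DMBA, a difference of -2.86 (adjusted p = 0.00999).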

How the results depend on the processing

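Of the 98 calls, 67 of 882 values under other settings and 51 of 396 with a library left out were no longer past the threshold, and 0 were reversed. Counts of members called moved as follows. DMBA against control: 10 higher with library size only and 3 with thinned counts, 3 to 7 with a library left out; 2 lower with limma on log2(FPKM + 0.1). TAM long against TAM short: 3 lower with that limma fit and 4 with a least absolute log2 change of 1, and 3 to 5 higher with a library left out. Called the same way in both: 5 with thinned counts. TAM short against control, higher: 10 with only the groups compared, 2 thinned, 1 with the least change, and 0 to 3 with a library left out. The same comparison, lower: 2 with DESeq2, 3 without the filter or with only the groups compared, 0 with library size only, either limma fit or the least change, and 0 to 1 with a library left out. TAM long against DMBA: 1 higher with DESeq2, 3 higher and 1 lower without the filter, and 0 to 1 each with a library left out. DMBA+TAM higher than all 4 groups: 1 without the filter or thinned, 1 to 3 with a library left out. Interaction: 5 without the filter, 0 thinned or with the least change, 0 to 2 with a library left out. With the replicate number as a block, 2 were lower in TAM short against control and 1 higher in TAM long against DMBA, and *Cldn3* lost its call in the former; numbers did not pair the libraries (correlations of deviations from -0.041 to 0.26). The pore-forming share of summed claudin FPKM was 24.79% in control, 13.46% in DMBA, 19.2% in TAM short, 12.76% in TAM long and 21.93% ± 10.01 (SD, n = 2) in DMBA+TAM. With *Cldn12* counted as pore-forming it was 25.88% in control, 20.36% in TAM short, 14.96% in TAM long and 59.03% in DMBA+TAM. Without *Cldn7* in the sum, it was 61.35% in control, 28.97% in DMBA, 54.54% in TAM short and 29.49% in TAM long. With the listed gene length, tried after the data were seen, it was 25.49% in control, 17.54% in TAM short and 10.6% in TAM long. The cause of these differences was not tested. The small DMBA+TAM libraries limit every level there below 3 counts.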
